A study of Mus musculus with 8 samples.

Results

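The genes described here encode the subunits and assembly factors of complex I of the mitochondrial respiratory chain, measured as RNA in C2C12 myotubes. The members were all genes whose annotated symbol starts with Ndufa, Ndufb, Ndufc, Ndufs or Ndufv, each read from its brightest probe set among those annotated to that symbol alone. This rule gave 44 of the 18193 genes with a usable probe set. Of these, 5 encode core subunits that hold iron-sulfur clusters, 29 encode other subunits and 8 encode assembly factors of the Ndufaf series. The remaining 2, Ndufa4 and Ndufa4l2, carry a complex I name but lie outside it, Ndufa4 being now assigned to cytochrome c oxidase. C2C12 is an established mouse myoblast line that fuses into multinucleated myotubes when serum is lowered. All cultures spent 3 days in medium with 2% dialyzed serum, were then infected with an adenovirus, and gave RNA 3 days later. The GFP group received a virus for green fluorescent protein alone, and the PGC-1α group a virus for PGC-1α tagged with GFP, with no further treatment in either. The 2 groups called GFP plus DFO or PGC-1α plus DFO received the same viruses and 100 µM of the iron chelator deferoxamine (DFO). Each of the 4 groups held 2 arrays, described in the design text as biological duplicates. Every group was infected, so no uninfected culture enters any comparison, the cells are a single line, and the sources used here do not give the promoter that drives the viral constructs.

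Complex I passes electrons from NADH to ubiquinone and pumps protons across the inner mitochondrial membrane. Its matrix arm holds a flavin and a chain of iron-sulfur clusters, carried by nuclear-encoded core subunits, and its membrane arm is built around subunits encoded by mitochondrial DNA. Accessory subunits surround this core, and assembly factors help to build the enzyme without staying in it. PGC-1α is a transcriptional coactivator known for raising the expression of respiratory chain genes in muscle, and DFO deprives cells of the iron from which the clusters are made.

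The probe set of Ppargc1a, which encodes PGC-1α, had intensities of 28.6 and 37.3 on the GFP arrays and 26.6 and 88.1 on the GFP plus DFO arrays, against 7036 to 7930.3 on the 4 arrays with the construct. Intensities are in arbitrary linear units as deposited, and differences below are on the log2 scale, given ± the standard error from the limma fit. Array medians lay between 59.5 and 62.8. The cells treated with DFO also differed in muscle differentiation. Of 13 markers of differentiated myotubes, 12 fell with DFO in GFP cells (median log2 difference -2.39) and all 13 fell in PGC-1α cells (median -2.72). Their summed intensity was 76219 and 73201 on the GFP arrays, 62663 and 62412 with PGC-1α, 25792 and 25518 with GFP plus DFO and 16127 and 15284 with PGC-1α plus DFO, and no marker was at the lowest deposited value of 1. Myog, the myogenin transcription factor, stood at 5223 and 5330.2 with GFP, 5296 and 5245 with PGC-1α, 174 and 141 with GFP plus DFO and 63.1 and 71.1 with PGC-1α plus DFO, so these markers bear out the myotube label least in the groups with DFO. Of 10 markers of undifferentiated cells, 2 rose and 6 fell with DFO in GFP cells, and of 6 fibroblast markers 2 rose and none fell, the median difference being 0.31. Of 5 measured markers of dividing cells none rose and 1 fell. In PGC-1α cells 2 markers of undifferentiated cells rose and 6 fell with DFO. There 2 fibroblast markers rose and none fell, and no marker of dividing cells was called. Among all genes 11.8% rose and 12.5% fell with DFO in GFP cells, and 11.4% and 14.2% in PGC-1α cells. The 5′ probe set of beta-actin, relative to its 3′ probe set, gave ratios of 0.897 to 0.921 on the 4 arrays without DFO, 0.868 and 0.859 with GFP plus DFO and 0.753 and 0.811 with PGC-1α plus DFO. The part of these differences in the results with DFO below was not tested. In these bulk samples, fewer cells of a type and less RNA per cell cannot be told apart.

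Of the 44 members, 41 were brighter than the median gene and 3 were dimmer, namely Ndufa4l2, Ndufaf6 and Ndufb4. No filter on low values was applied. The rule gave no value for Ndufs6 and Ndufa11, whose probe sets are annotated to another gene as well. Those shared probe sets differed by 0.75 (Ndufs6) and 1.10 (Ndufa11) for PGC-1α without DFO, and by -0.49 and -0.70 for DFO in GFP cells, and cannot be assigned to a single gene.

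Across the members the 4 groups stood mostly in the same order. In 31 of 44 genes the group means were highest with PGC-1α, next with PGC-1α plus DFO, then with GFP, and lowest with GFP plus DFO. In 6 further genes GFP stood above PGC-1α plus DFO, the other ranks being equal. The remaining 7 genes had other orders: Ndufa1, Ndufaf8 and Ndufv3 were highest with PGC-1α plus DFO and lowest with GFP. Neighbouring means in this order did not all differ beyond the error, since PGC-1α plus DFO differed from GFP in 23 of 44 members only. Of all genes 31.8% differed between these groups. The share of all genes with each order of the 4 groups was not counted.

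**Figure D1:**
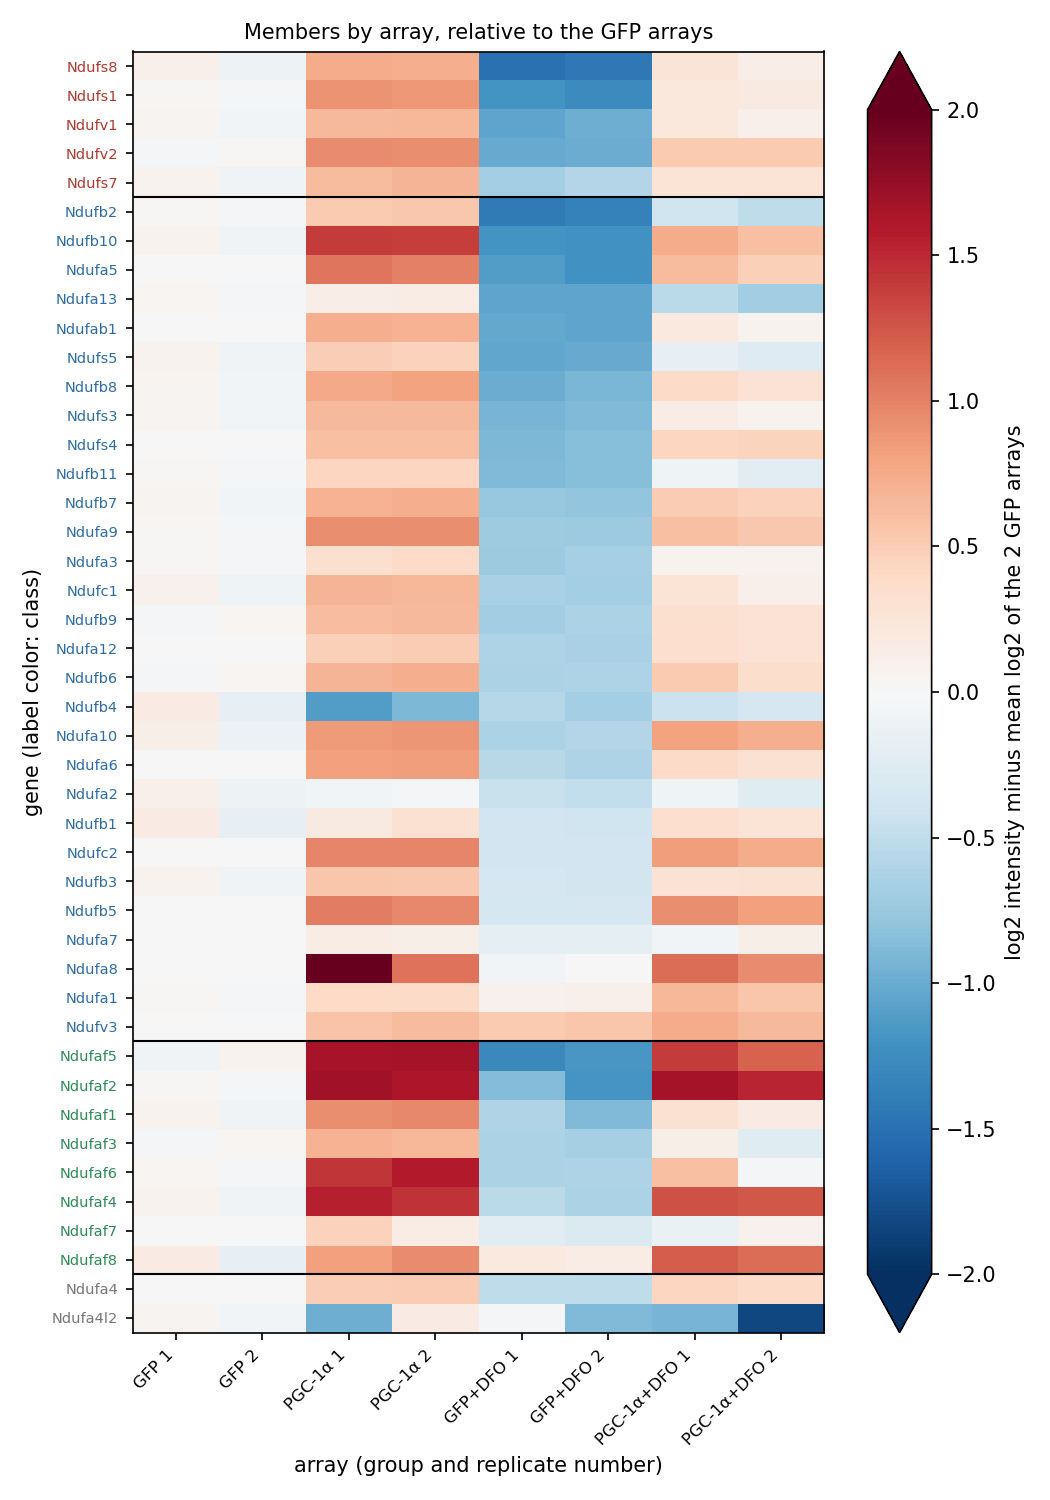
Log2 intensity of each of the 44 members (rows) on each of the 8 arrays (columns), minus the mean log2 of the 2 GFP arrays, with the colour scale capped at -2 and 2. Rows are grouped by class (label colour: iron-sulfur subunits red, other subunits blue, assembly factors green, Ndufa4 and Ndufa4l2 grey) and most are red with PGC-1α and blue with GFP plus DFO, with Ndufv3, Ndufa1 and Ndufaf8 not blue there.

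PGC-1α raised most complex I genes in cells without DFO. Compared with GFP, 35 of 44 members rose and 1 fell, with a median log2 difference of 0.68 (1.60-fold). Among all genes 4.96% rose and 4.77% fell, and the median was -0.08. The assembly factors had the largest median of the 3 classes, 1.22, against 0.73 for the iron-sulfur subunits and 0.63 for the other subunits. The member that fell, Ndufb4, and the members not called are described below. The count of 35 rested on the pooled spread of few arrays: it was 16 or 13 when GFP replicate 1 or 2 was left out, 9 or 12 for PGC-1α replicate 1 or 2, and 17 for each replicate of GFP plus DFO. The share of all genes that rose dropped in each of these fits as well. With only the GFP and PGC-1α arrays in the limma fit no member and no other gene passed. There 37 members had an unadjusted p under 0.05. In the limma fit of all 8 arrays 38 members and 5036 of the 18193 genes did. Over the 29 members named by rule, 23 rises or falls with PGC-1α were called and 5 of them stayed called whichever array was left out.

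DFO lowered most complex I genes in GFP cells. With DFO 35 of 44 members fell and 1, Ndufv3, rose, and the median log2 difference was -0.66 (1.58-fold lower). Among all genes 12.5% fell and 11.8% rose, with a median of -0.02. The iron-sulfur subunits had the largest median fall, -1.02, against -0.66 for the other subunits and -0.64 for the assembly factors. The count of 35 dropped without GFP plus DFO replicate 1 or 2, and so did the share of all genes that fell. The members' medians were then -0.67 and -0.65.

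Under DFO the PGC-1α construct again went with higher complex I expression. Against GFP plus DFO, 37 of 44 members rose and none fell, with a median log2 difference of 0.97 (1.96-fold), while 6.93% of all genes rose and the median gene was at -0.05. The medians were 1.43 for the iron-sulfur subunits, 0.94 for the other subunits and 0.98 for the assembly factors. In 34 of 44 members the rise passed both without and with DFO. Taken singly, these comparisons had rises in 4.96% and 6.93% of all genes, and the share passing both was not counted over all genes.

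In PGC-1α cells DFO lowered 21 of 44 members and raised 1, Ndufb4, with a median log2 difference of -0.36 (1.29-fold lower), on the deposited scale. Among all genes 14.2% fell and 11.4% rose. All 5 iron-sulfur subunits, 13 of 29 other subunits and 3 of 8 assembly factors fell, with medians of -0.50, -0.28 and -0.35. In 20 members the fall passed in both GFP and PGC-1α cells, where singly 12.5% and 14.2% of all genes fell. The count of 21 dropped without PGC-1α replicate 1, PGC-1α replicate 2 or PGC-1α plus DFO replicate 2. The share of all genes that fell dropped as well, and the members' medians were then -0.35, -0.37 and -0.36. With only the 2 groups in the fit 2 members and 6.01% of all genes fell.

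This last comparison depended on how the arrays were put on a common scale. Poly-A spike-ins are RNAs meant to be added to each sample in known amounts, and whether the amounts were equal was not tested. Their mean log2 was 8.14 and 8.05 on the GFP arrays and 7.95 and 7.82 with PGC-1α. It was 8.16 and 7.91 with GFP plus DFO and 7.60 and 7.47 with PGC-1α plus DFO, so arrays of a group differed too. Scaling each array to the 27 probe sets for these spike-ins moved the median of all genes by DFO in PGC-1α cells from 0.01 to 0.36. The median of the members then was -0.01 in place of -0.36, and 2 members fell and 3 rose, against 5.73% and 18.2% of all genes. Without the Trp probe sets, an alternative chosen after seeing the data, the members' median was 0.08. None fell and 2 rose, against 4.41% and 18.7% of all genes. An unadjusted limma p under 0.05 was found for 8 members there. On the deposited scale it was found for 28 members and 6780 of the 18193 genes. Relative to the median gene the members stood at -0.37 on either scale. This sameness was fixed in advance, since the scaling shifts all genes of an array alike. The spike-in scale also moved the median of all genes to 0.13 for PGC-1α without DFO, 0.05 for DFO in GFP cells, 0.45 for PGC-1α with DFO and 0.56 for both factors against GFP. On it the members' medians were 0.89, -0.59, 1.48 and 0.87, in the direction found on the deposited scale. Relative to the median gene they were 0.76, -0.64, 1.02 and 0.32, by construction the same on either scale. The share of rises among all genes called moved from 51.0% to 85.6%, 48.5% to 54.5%, 36.6% to 89.3% and 42.4% to 83.9% in these comparisons, and from 44.6% to 76.0% for DFO in PGC-1α cells.

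**Figure D2:**
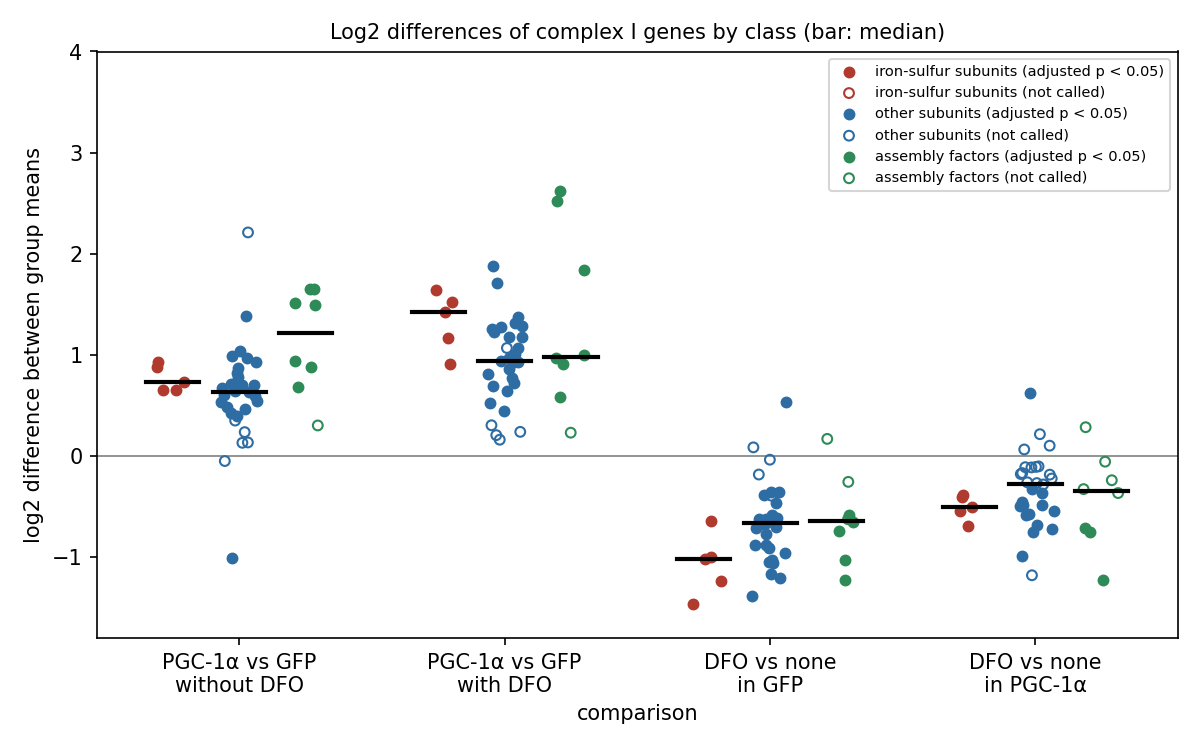
Log2 difference between group means for each member of the 3 classes (points, filled where limma's adjusted p is under 0.05, open otherwise, with black bars at class medians) in 4 comparisons, on the deposited scale. The medians of the iron-sulfur subunits, other subunits and assembly factors are 0.73, 0.63 and 1.22 for PGC-1α without DFO and -1.02, -0.66 and -0.64 for DFO in GFP cells. For DFO in PGC-1α cells they are -0.50, -0.28 and -0.35, which spike-in scaling moves to -0.15, 0.08 and 0.01.

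The iron-sulfur subunits are Ndufv1 and Ndufv2, which with the flavin form the NADH-binding tip, Ndufs1, the large subunit that carries several clusters, and Ndufs7 and Ndufs8, which carry the last clusters before ubiquinone. All 5 rose with PGC-1α in both conditions and fell with DFO in both kinds of cells on the deposited scale. On the spike-in scale the falls in PGC-1α cells were not called in any of the 5, with differences from -0.33 (Ndufs1) to -0.032 (Ndufs7), and without Trp those of Ndufs7 and Ndufv2 turned to 0.052 and 0.031.

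Ndufs8 had the largest fall with DFO of all 34 subunits in GFP cells. Its intensity was 4602 and 3977 with GFP, 7137 and 7083 with PGC-1α, 1529 and 1589 with GFP plus DFO and 5088 and 4679 with PGC-1α plus DFO. The groups did not overlap, and the 2 arrays with GFP plus DFO were far below the rest. The difference by DFO was -1.46 ± 0.11 (adjusted p = 0.00089, 2.75-fold lower) in GFP cells and -0.54 ± 0.11 (adjusted p = 0.018) in PGC-1α cells. PGC-1α raised it by 0.73 ± 0.11 (adjusted p = 0.018) without DFO and by 1.65 ± 0.11 (adjusted p = 0.0013) with DFO.

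Ndufs1 was the third most lowered subunit. It stood at 1925 and 1851 with GFP, 3507 and 3455 with PGC-1α, 821 and 784 with GFP plus DFO and 2183 and 2135 with PGC-1α plus DFO, with no overlap between groups. DFO changed it by -1.23 ± 0.08 (adjusted p = 0.00063) in GFP cells and by -0.69 ± 0.08 (adjusted p = 0.0032) in PGC-1α cells, and PGC-1α raised it by 0.88 ± 0.08 and 1.43 ± 0.08 without and with DFO.

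Ndufv1, which binds NADH and the flavin, had intensities of 3312 and 3099 with GFP, 5003 and 5072 with PGC-1α, 1549 and 1619.8 with GFP plus DFO and 3694 and 3419 with PGC-1α plus DFO. Its partner Ndufv2 had 3603 and 3745, 7081 and 6969, 1822 and 1855, and 5298 and 5291 in the same order of groups. With DFO in GFP cells Ndufv1 differed by -1.02 ± 0.09 (adjusted p = 0.0015), and the mean of Ndufv2 stood 2.00-fold lower (adjusted p = 0.0010). Ndufv2 alone of the 5 was called higher with PGC-1α plus DFO than with GFP, by 0.53 ± 0.08 (adjusted p = 0.0050).

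Ndufs7 differed least of the 5 with DFO. Its intensity was 3946 and 3556 with GFP, 5830.4 and 5989.5 with PGC-1α, 2334 and 2485 with GFP plus DFO and 4508 and 4526 with PGC-1α plus DFO. Its fall of -0.64 ± 0.09 (adjusted p = 0.0070) ranked 20th of 34 subunits, and the other iron-sulfur subunits ranked 1, 3, 9 and 10. Ndufs7 thus fell by about as much as the median of the subunits without a cluster, and its fall was not called without GFP plus DFO replicate 1 (adjusted p = 0.058). The other 4 falls in GFP cells, and all 5 rises with PGC-1α under DFO, were called whichever array was left out. Of the 5 rises without DFO only that of Ndufv2 was, and of the 5 falls in PGC-1α cells only that of Ndufs1. The rise of Ndufs1 was lost without PGC-1α replicate 1 (adjusted p = 0.053).

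**Figure D3:**
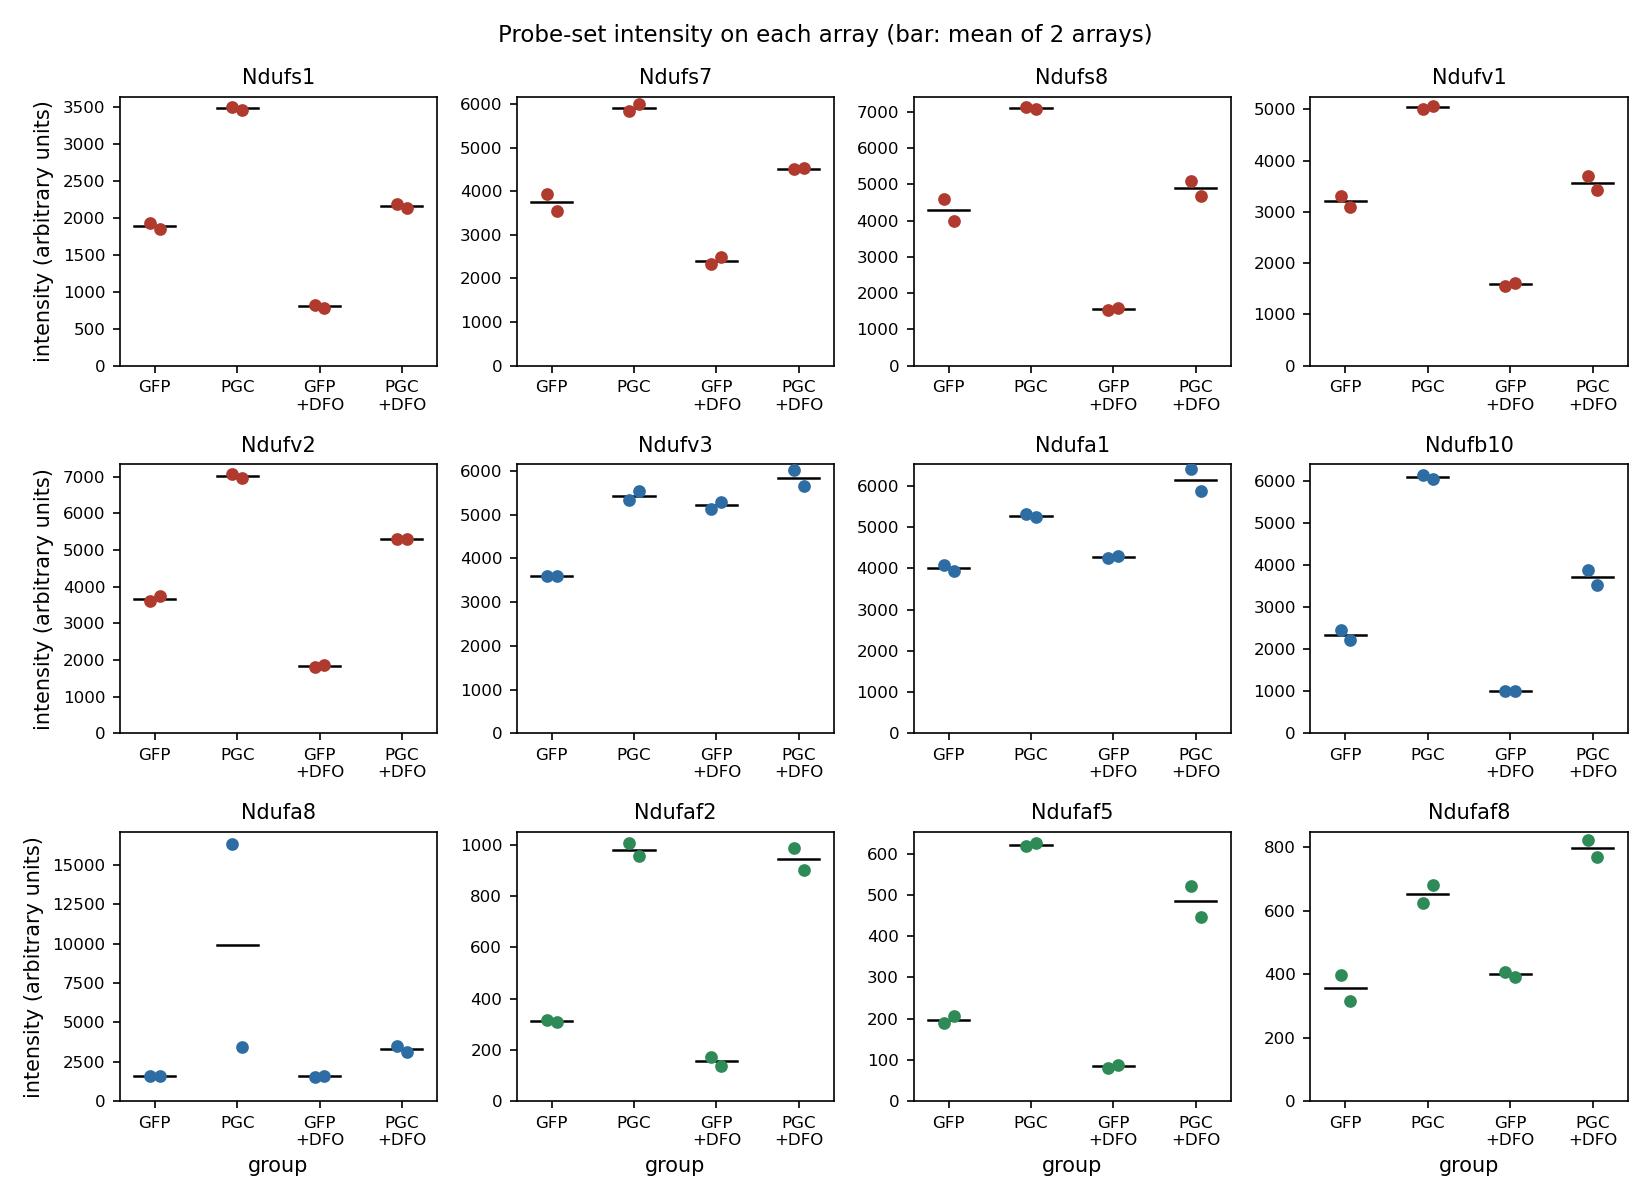
Probe-set intensity (linear scale from 0, arbitrary units) on each array (points) with the mean of 2 arrays (bars) for the 5 iron-sulfur subunits (red), 4 other subunits (blue) and 3 assembly factors (green), in each of the 4 groups, where PGC stands for PGC-1α. The iron-sulfur subunits are lowest with GFP plus DFO, Ndufv3 and Ndufa1 are not, and Ndufa8 has 1 array at 16346 beside 3419.8 in the PGC-1α group.

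The difference between the iron-sulfur subunits and the other subunits was largest with GFP plus DFO. With each gene taken relative to its GFP mean, the mean of the 5 iron-sulfur subunits minus that of the 29 others was -0.44 and -0.41 on the 2 GFP plus DFO arrays. It was 0.12 and 0.18 with PGC-1α, and -0.04 and -0.01 with PGC-1α plus DFO. The 2 arrays of a group thus lay close together. Between group means DFO changed this gap by -0.43 in GFP cells and by -0.18 in PGC-1α cells, where it started above 0. The distributions overlapped gene by gene: 6 of the 29 other subunits fell further with DFO in GFP cells than the iron-sulfur median, and 4 of the 5 iron-sulfur subunits fell further than the median of the others. Multiplying an array by a factor cannot change these differences between classes. No test was made over the members of a class, which share the arrays and are not replicates.

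**Figure D4:**
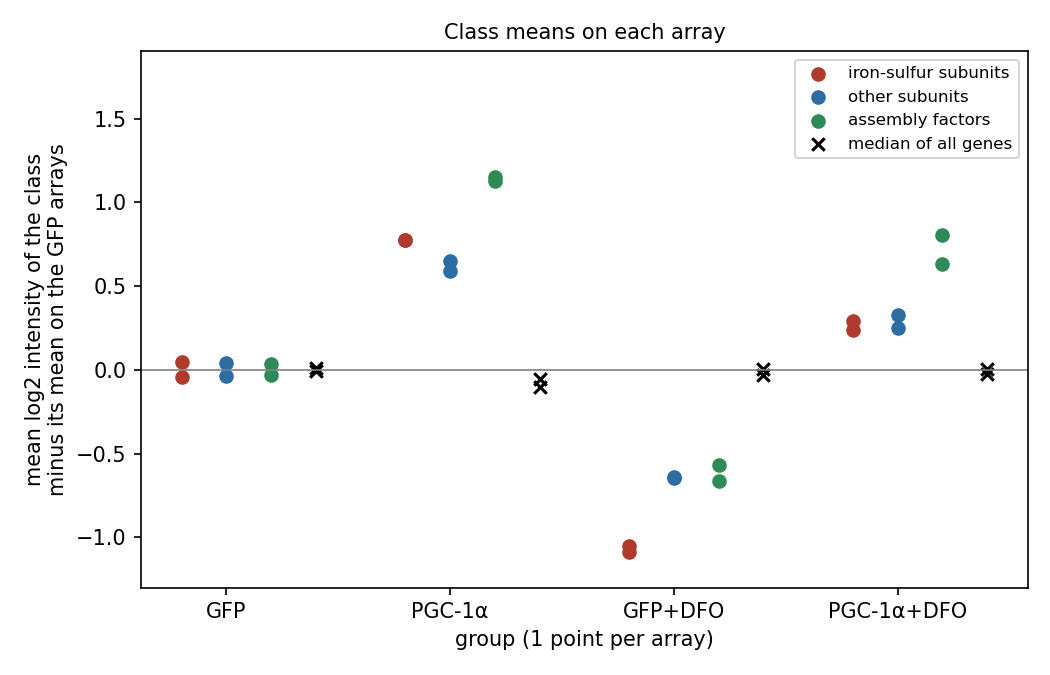
Mean log2 intensity of each class relative to its mean on the GFP arrays, with 1 point per array in each of the 4 groups and crosses for the median of all genes. The iron-sulfur subunits lie 0.44 and 0.41 below the other subunits on the GFP plus DFO arrays and within 0.04 of them on the PGC-1α plus DFO arrays, and the assembly factors lie 0.38 to 0.54 above the other subunits on the 4 arrays with PGC-1α.

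Ndufs3, a core subunit without a cluster, stood at 2974 and 2773 with GFP, 4509 and 4478 with PGC-1α, 1506 and 1563 with GFP plus DFO and 3186 and 3006 with PGC-1α plus DFO. It changed with DFO by -0.90 ± 0.08 (adjusted p = 0.0019) in GFP cells and by -0.54 ± 0.08 (adjusted p = 0.0091) in PGC-1α cells, and rose with PGC-1α by 0.65 ± 0.08 and 1.01 ± 0.08 without and with DFO. The rise without DFO was lost when any array of GFP, PGC-1α or GFP plus DFO was left out (highest adjusted p = 0.093), and the fall in PGC-1α cells without PGC-1α replicate 1 (adjusted p = 0.057).

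Of the 6 measured accessory subunits of the NADH-binding module (Ndufa2, Ndufa6, Ndufa7, Ndufa12, Ndufs4 and Ndufv3), 4 rose with PGC-1α without DFO, and 4 fell and 1 rose with DFO in GFP cells. The median differences were 0.54 and -0.53. Ndufs4, an accessory subunit needed for a stable NADH-binding module, stood at 2264 and 2235 with GFP, 3415 and 3408 with PGC-1α, 1207 and 1241 with GFP plus DFO and 3025 and 3053 with PGC-1α plus DFO. It changed with DFO in GFP cells by -0.88 ± 0.07 (adjusted p = 0.0014), and in PGC-1α cells its difference was -0.17 ± 0.07 (adjusted p = 0.17). The arrays with PGC-1α plus DFO were thus above GFP, which they exceeded by 0.43 ± 0.07 (adjusted p = 0.0092). Ndufa6 and Ndufa12 rose with PGC-1α by 0.82 ± 0.08 and 0.49 ± 0.08, and changed with DFO in GFP cells by -0.59 ± 0.08 and -0.63 ± 0.08.

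Ndufv3, an accessory subunit beside Ndufv1 and Ndufv2 at the NADH-binding tip, was the only member that rose with DFO in GFP cells. Its intensity was 3585 and 3586 with GFP, 5329 and 5529.9 with PGC-1α, 5132 and 5291 with GFP plus DFO and 6026 and 5646 with PGC-1α plus DFO. The GFP arrays were lowest and the 3 other groups lay close together. DFO raised it by 0.54 ± 0.08 (adjusted p = 0.0081, 1.45-fold) in GFP cells, and PGC-1α raised it by 0.60 ± 0.08 (adjusted p = 0.016) without DFO. With DFO the difference by PGC-1α was 0.16 ± 0.08 (adjusted p = 0.25), and its interaction of -0.44 ± 0.11 (adjusted p = 0.16) was not called. The rise with DFO was not called without GFP plus DFO replicate 1 or 2 (highest adjusted p = 0.068). The rise with PGC-1α was lost when any array of GFP, PGC-1α or GFP plus DFO was left out (highest adjusted p = 0.090). A single probe set measures this gene.

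Ndufa7 and Ndufa2 of the same module had the smallest differences by PGC-1α without DFO among the subunits. Ndufa7 lay between 3887 and 4919.9 on all 8 arrays and was called in no comparison, with differences of 0.13 ± 0.09, -0.18 ± 0.09, 0.21 ± 0.09 and -0.11 ± 0.09 for PGC-1α without DFO, DFO in GFP cells, PGC-1α with DFO and DFO in PGC-1α cells. Ndufa2 lay at 3482 and 3024 with GFP and at 3111 and 3167 with PGC-1α, the groups overlapping, and changed with DFO in GFP cells by -0.46 ± 0.11 (adjusted p = 0.034) to 2395 and 2308. This call was lost without GFP replicate 1 or any array of PGC-1α or GFP plus DFO (highest adjusted p = 0.16).

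The accessory subunits of the ubiquinone-binding module, Ndufa5 and Ndufa9, followed the main order. Ndufa5 stood at 2025 and 2039 with GFP, 4283 and 4080.2 with PGC-1α, 937 and 877 with GFP plus DFO and 3145 and 2816 with PGC-1α plus DFO, with no overlap between groups. Its differences were 1.04 ± 0.10 (adjusted p = 0.0056) for PGC-1α without DFO and -1.16 ± 0.10 (adjusted p = 0.0012) for DFO in GFP cells, the first lost without PGC-1α replicate 1 (adjusted p = 0.053). The values of Ndufa9 for the same comparisons were 0.93 ± 0.08 and -0.71 ± 0.08, both called.

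In the proximal membrane arm, 5 of 8 measured subunits rose with PGC-1α without DFO and 6 of 8 fell with DFO in GFP cells, with medians of 0.57 and -0.64. Ndufa10 stood at 2978 and 2531 with GFP, 4969 and 5067 with PGC-1α, 1761 and 1833 with GFP plus DFO and 4802 and 4558 with PGC-1α plus DFO. On this brightest probe set the value with PGC-1α plus DFO was close to that with PGC-1α alone, the difference being -0.10 ± 0.11 (adjusted p = 0.56). The fall in GFP cells was -0.61 ± 0.11 (adjusted p = 0.013), a call lost without either GFP plus DFO array. In a fit of every probe set, a dimmer probe set of Ndufa10 fell with DFO in both kinds of cells. Its differences were -1.03 ± 0.15 (adjusted p = 0.012) in PGC-1α cells and -1.19 ± 0.15 (adjusted p = 0.0084) in GFP cells.

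Ndufa13, also known as GRIM-19, went the other way in the combined treatment. It stood at 5056 and 4812 with GFP, 5393 and 5445 with PGC-1α, 2377 and 2365 with GFP plus DFO and 3407 and 3045 with PGC-1α plus DFO. PGC-1α alone gave a difference of 0.14 ± 0.09 (adjusted p = 0.40), and DFO changed it by -1.06 ± 0.09 (adjusted p = 0.0015) in GFP and -0.75 ± 0.09 (adjusted p = 0.0039) in PGC-1α cells. With both factors it differed from GFP alone by -0.61 ± 0.09 (adjusted p = 0.0056) on the deposited scale, a difference that is 0.0015 with spike-in scaling without Trp.

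Ndufa1, a small membrane-arm subunit encoded on the X chromosome, had no called difference by DFO. Its intensity was 4089 and 3939.8 with GFP, 5318 and 5228 with PGC-1α, 4239.6 and 4288 with GFP plus DFO and 6394 and 5876 with PGC-1α plus DFO. The difference by DFO was 0.09 ± 0.08 (adjusted p = 0.53) in GFP cells and 0.22 ± 0.08 (adjusted p = 0.13) in PGC-1α cells. PGC-1α raised it by 0.39 ± 0.08 (adjusted p = 0.049) without and 0.52 ± 0.08 (adjusted p = 0.014) with DFO. The first of these was not called when any array of GFP, PGC-1α or GFP plus DFO was left out (highest adjusted p = 0.20), nor the second without GFP plus DFO replicate 1 or 2 (highest adjusted p = 0.10).

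Ndufa8, a subunit with twin cysteine pairs on the intermembrane-space side, held the most discordant pair of arrays among the members. It stood at 1606 and 1622 with GFP, 16346 and 3419.8 with PGC-1α, 1548 and 1603 with GFP plus DFO and 3511 and 3114 with PGC-1α plus DFO. The value of 16346 was the highest of any gene on that array, and on the other PGC-1α array the gene ranked 767th. The gap of 2.26 between the 2 PGC-1α arrays was matched or exceeded in 3 of 9097 genes above the median level, this gene included, and the next largest gap of any member in any group was 1.14. With all arrays the difference by PGC-1α was 2.21 ± 0.70 (adjusted p = 0.12). Without PGC-1α replicate 1 it was 1.08 ± 0.13 (adjusted p = 0.047), and the difference by PGC-1α with DFO was 1.07 ± 0.10 (adjusted p = 0.012) in place of 1.07 ± 0.70 (adjusted p = 0.37). By DFO the values without that array were -0.03 in GFP and -0.05 in PGC-1α cells, neither called.

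In the distal membrane arm, the Ndufb subunits, 9 of 11 rose and 1 fell with PGC-1α without DFO, and 10 of 11 fell with DFO in GFP cells, with medians of 0.63 and -0.66. Ndufb10 had the largest called rise among the subunits. It stood at 2460.3 and 2218 with GFP, 6150.3 and 6059 with PGC-1α, 1015 and 1006 with GFP plus DFO and 3894 and 3539 with PGC-1α plus DFO, a change by PGC-1α of 1.39 ± 0.10 (adjusted p = 0.0031, 2.61-fold) without DFO and 1.88 ± 0.10 (adjusted p = 0.00090) with DFO. DFO changed it by -1.21 ± 0.10 and -0.72 ± 0.10 in GFP and PGC-1α cells. These calls held whichever array was left out.

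Ndufb2, a small distal subunit, had the second largest fall of all subunits with DFO in GFP cells. Its values were 1910.0 and 1836 with GFP, 2698 and 2734 with PGC-1α, 703 and 734 with GFP plus DFO and 1428 and 1316 with PGC-1α plus DFO. The falls with DFO were -1.38 ± 0.09 (adjusted p = 0.00059) in GFP and -0.99 ± 0.09 (adjusted p = 0.0013) in PGC-1α cells, so that the combined treatment differed from GFP by -0.45 ± 0.09 (adjusted p = 0.013), a difference that turned to 0.12 on the spike-in scale and was not called without GFP replicate 1 (adjusted p = 0.064).

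Ndufb4 gave results of opposite sign on different probe sets in 2 of the 4 single-factor comparisons. The probe set annotated to it alone was dim, at 54.0 and 42.8 with GFP, 22.1 and 25.9 with PGC-1α, 32.3 and 30.2 with GFP plus DFO and 35.6 and 38.2 with PGC-1α plus DFO. There the gene differed by -1.01 ± 0.15 with PGC-1α (adjusted p = 0.019) and by DFO in PGC-1α cells by 0.63 ± 0.15 (adjusted p = 0.035), both against most members. Both calls were lost when any PGC-1α or GFP plus DFO array was left out, the first also without GFP replicate 1 (highest adjusted p = 0.11) and the second also without either PGC-1α plus DFO array (highest adjusted p = 0.15). The bright probe sets shared with Ndufb4b and Ndufb4c had group means of 3479 and 3071 with GFP and 5724 and 5329 with PGC-1α. In a fit of every probe set their differences were 0.72 ± 0.10 and 0.80 ± 0.10 by PGC-1α, and -0.67 ± 0.10 and -0.77 ± 0.10 by DFO in PGC-1α cells. The signs were the same for DFO in GFP cells, -0.62 ± 0.15 against -1.09 ± 0.10 and -1.16 ± 0.10, and for PGC-1α with DFO, 0.24 ± 0.15 against 1.14 ± 0.10 and 1.18 ± 0.10. Those probe sets cannot be assigned to a single gene.

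Ndufab1, the mitochondrial acyl carrier protein that is also a complex I subunit, stood at 3067 and 3029 with GFP, 5021 and 4949.5 with PGC-1α, 1494 and 1464 with GFP plus DFO and 3492 and 3202 with PGC-1α plus DFO. The brightest of its 5 probe sets changed with DFO in GFP cells by -1.04 ± 0.08 (adjusted p = 0.0012). A dimmer probe set, the brightest with no shared-sequence suffix, gave 0.082 ± 0.11 (adjusted p = 0.65), and the mean of the 5 gave 0.18 ± 0.25. Of the 22 members with several probe sets, all probe sets had the same sign in 20 for PGC-1α without DFO and in 15 for DFO in GFP cells. The same held in 19 for PGC-1α with DFO and in 17 for DFO in PGC-1α cells. In the last comparison 1 member, Ndufb8, had a probe set called the opposite way in a fit of every probe set. Its dimmer probe set differed by 1.26 ± 0.20 (adjusted p = 0.015), against -0.45 ± 0.11 on the brightest.

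Without DFO the assembly factors had the largest median difference by PGC-1α of the 3 classes. On the 4 arrays with PGC-1α their mean relative to GFP exceeded that of the other subunits by 0.50 and 0.54 without DFO and by 0.48 and 0.38 with DFO, and on the GFP plus DFO arrays the classes were within 0.07 and -0.02 of each other. Of the 8, 7 rose with PGC-1α without DFO and 7 with DFO, and 5 fell with DFO in GFP cells.

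Ndufaf2, which binds late in the assembly of the NADH-binding module, stood at 317 and 309 with GFP, 1008 and 956 with PGC-1α, 172 and 138 with GFP plus DFO and 987 and 904 with PGC-1α plus DFO. The 4 arrays with PGC-1α overlapped whether or not DFO was present. PGC-1α raised it by 1.65 ± 0.13 (adjusted p = 0.0043, 3.14-fold) without DFO and by 2.62 ± 0.13 (adjusted p = 0.00086, 6.13-fold) with DFO. DFO changed it by -1.02 ± 0.13 (adjusted p = 0.0047) in GFP cells, and the difference in PGC-1α cells was -0.05 ± 0.13 (adjusted p = 0.81).

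Ndufaf5, which hydroxylates an arginine of Ndufs7 during assembly, followed a like course. Its values were 189 and 206 with GFP, 619 and 626 with PGC-1α, 80.8 and 88.2 with GFP plus DFO and 521 and 448 with PGC-1α plus DFO. The differences were 1.66 ± 0.11 (adjusted p = 0.0030) and 2.52 ± 0.11 (adjusted p = 0.00078) for PGC-1α without and with DFO, and -1.22 ± 0.11 (adjusted p = 0.0018) and -0.36 ± 0.11 (adjusted p = 0.073) for DFO in GFP and PGC-1α cells.

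Ndufaf4, an early assembly factor, stood at 522 and 477 with GFP, 1460.3 and 1353 with PGC-1α, 345 and 322 with GFP plus DFO and 1204 and 1180.2 with PGC-1α plus DFO. It rose by 1.49 ± 0.09 (adjusted p = 0.0027) and 1.84 ± 0.09 (adjusted p = 0.00090) with PGC-1α, and with both factors it stayed above GFP by 1.26 ± 0.09 (adjusted p = 0.00060). In a fit of every probe set, a dimmer probe set of Ndufaf4 rose by 1.51 ± 0.12 and 1.79 ± 0.12 and stayed above GFP by 0.85 ± 0.12. With DFO in PGC-1α cells it fell by -0.66 ± 0.12 (adjusted p = 0.022), against -0.24 ± 0.11 (adjusted p = 0.24) on the brighter one. The rises of Ndufaf2, Ndufaf4 and Ndufaf5 with PGC-1α were called whichever array was left out.

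The other assembly factors fell with DFO in PGC-1α cells (Ndufaf1, Ndufaf3 and Ndufaf6) or were called lower in neither kind of cells (Ndufaf7 and Ndufaf8). Ndufaf1, a factor of the membrane-arm intermediates, stood at 599.8 and 548 with GFP, 1091 and 1115 with PGC-1α, 378 and 311 with GFP plus DFO and 706 and 641 with PGC-1α plus DFO. Its differences by DFO were -0.74 ± 0.13 in GFP and -0.71 ± 0.13 in PGC-1α cells, both called, with an interaction of 0.03 ± 0.18 (adjusted p = 0.95). The first was lost without GFP replicate 1 or GFP plus DFO replicate 2 (highest adjusted p = 0.069), the second without PGC-1α replicate 1 or 2 or PGC-1α plus DFO replicate 2 (highest adjusted p = 0.067). Ndufaf3, a partner of Ndufaf4, gave 0.68 ± 0.14 for PGC-1α and -0.65 ± 0.14 for DFO in GFP cells, with adjusted p of 0.043 and 0.025. Both calls were lost when any array of GFP, PGC-1α or GFP plus DFO was left out.

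Ndufaf6, which was dim, stood at 87.1 and 82.3 with GFP, 228 and 255 with PGC-1α, 54.9 and 55.1 with GFP plus DFO and 128 and 83.7 with PGC-1α plus DFO. The PGC-1α arrays were the highest, and DFO changed it there by -1.22 ± 0.21 (adjusted p = 0.012), a call lost without PGC-1α replicate 1 or 2 (highest adjusted p = 0.062). Ndufaf8 stood at 399 and 315 with GFP, 624 and 682 with PGC-1α, 406 and 392 with GFP plus DFO and 823 and 769.6 with PGC-1α plus DFO. GFP and GFP plus DFO overlapped, and its differences by DFO were 0.17 ± 0.14 and 0.29 ± 0.14, neither called. Ndufaf7, a methyltransferase, lay between 279.6 and 469 on the 8 arrays and was called in no comparison.

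Of 13 other genes with a role in complex I assembly that the naming rule does not take, 12 were measured. PGC-1α raised 5 of them without DFO (median 0.54), and DFO lowered 4 in GFP cells (median -0.27) and 7 in PGC-1α cells (median -0.57). On the deposited scale their median fall was thus the larger in PGC-1α cells, and the members' the larger in GFP cells. Spike-in scaling shifts every gene of a comparison by the same amount. It moved the median of all genes from -0.02 to 0.05 for DFO in GFP cells, and from 0.01 to 0.36 in PGC-1α cells. Falls in PGC-1α cells, that of Foxred1 included, are thus smaller on that scale, where the medians of these genes were not computed. Foxred1, an assembly oxidoreductase, gave -0.11 ± 0.08 (adjusted p = 0.35) and -0.56 ± 0.08 (adjusted p = 0.0053) for DFO in GFP and PGC-1α cells. Nubpl, which delivers iron-sulfur clusters to complex I, gave -0.48 ± 0.22 (adjusted p = 0.19) and -0.57 ± 0.22 (adjusted p = 0.13).

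Ndufa4 followed the complex I subunits. It stood at 4196 and 4207 with GFP, 5887 and 5968 with PGC-1α, 2962 and 2967 with GFP plus DFO and 5653 and 5464 with PGC-1α plus DFO, with differences of 0.50 ± 0.07 (adjusted p = 0.020) for PGC-1α and -0.50 ± 0.07 (adjusted p = 0.0078) for DFO in GFP cells. The first call was lost when any array of GFP, PGC-1α or GFP plus DFO was left out (highest adjusted p = 0.11), the second without either GFP plus DFO array (highest adjusted p = 0.063). Its paralog Ndufa4l2, known as a target of hypoxia-inducible factor, was dim. It read 57.6 and 53.5 with GFP, 28.2 and 62.0 with PGC-1α, 54.2 and 30.0 with GFP plus DFO and 29.2 and 15.8 with PGC-1α plus DFO. DFO gave -0.46 ± 0.52 in GFP and -0.96 ± 0.52 in PGC-1α cells, and no comparison was called. Neither difference by the chelator was above 0.

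With both factors against GFP alone, 21 members were higher, 2 lower (Ndufa13 and Ndufb2) and 21 not called, the median being 0.31. Among all genes 13.5% were higher and 18.3% lower. Called higher were 1 of 5 iron-sulfur subunits, 15 of 29 other subunits and 4 of 8 assembly factors. The class medians were 0.19, 0.31 and 0.73, so that the assembly factors kept the largest difference. On the spike-in scale 34 members were higher and 0 lower, against 33.7% and 6.48% of all genes. An unadjusted limma p under 0.05 was found for 40 members there. On the deposited scale it was found for 27 members and 7520 of the 18193 genes. With only these 2 groups in the fit 8 members and 16.7% of all genes were called.

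The difference by PGC-1α was larger with DFO than without in 38 of 44 members, but the interaction, which tests this, was called in none. It was above 0 in 32 of 34 subunits, in 5 of 8 assembly factors and in 8891 of the 18193 genes. The interaction had a median of 0.35 over the members against -0.01 over all genes, of which 0.555% were called, and by class 0.54, 0.35 and 0.07. In the limma fit 26 of 44 members and 3165 of the 18193 genes had an unadjusted p under 0.05. The values with the lowest adjusted p were 0.71 ± 0.10 for Ndufs4 (adjusted p = 0.067), 0.91 ± 0.15 for Ndufs8 (adjusted p = 0.077) and 1.25 ± 0.21 for Ndufb4 on its dim probe set (adjusted p = 0.084). With limma's trend and robust options 26 members and 8.06% of all genes were called. When only genes above the median level were tested, 17 members and 14.5% of these genes were.

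**Figure D5:**
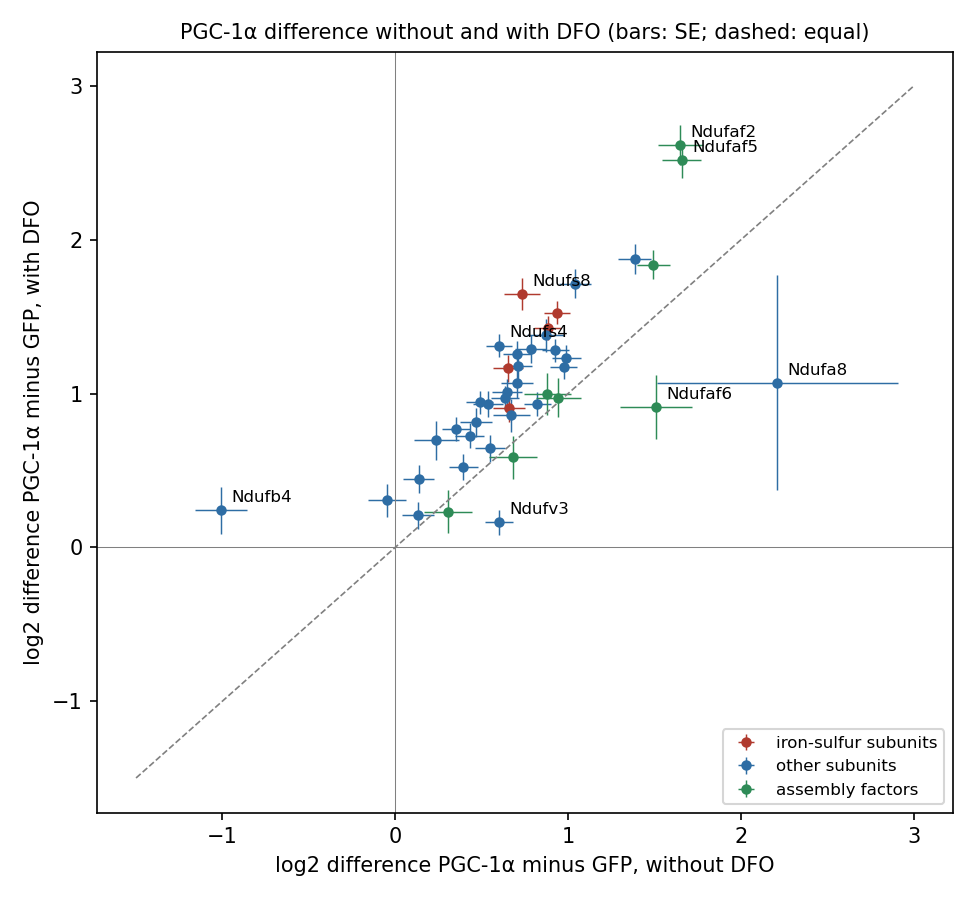
Log2 difference of PGC-1α minus GFP without DFO (x axis) and with DFO (y axis) for each subunit and assembly factor, with bars of 1 SE and a dashed line where both are equal. Most points lie above the line, Ndufaf2 at 1.65 and 2.62 and Ndufs8 at 0.73 and 1.65. Among those below it are Ndufv3 at 0.60 and 0.16, Ndufaf6 at 1.51 and 0.91, and Ndufa8, whose x value rests on 1 array.

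Most subunits of other respiratory complexes were called in the same directions. Of 13 subunits of complexes II and III, 12 rose with PGC-1α without DFO (median 0.88) and 10 fell with DFO in GFP cells (median -0.50). Of 15 ATP synthase subunits, 10 rose (median 0.55) and 12 fell (median -0.36). Among all genes 4.96% rose and 12.5% fell in these comparisons. The complex I members had medians of 0.68 and -0.66 in these comparisons, and no test of the difference between complexes was made.

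Promoter sequences from RefSeq on mouse build GRCm38.p6, 250 bases before to 50 after each annotated start, were found for 39 of 44 members (41 promoters). No entry was matched for Ndufa2, Ndufa4l2, Ndufaf6, Ndufb9 and Ndufs1. Both strands were searched for motifs of factors linked to PGC-1α or to oxygen and iron sensing, a match being a description of the letters only. The element of nuclear respiratory factor 1 was found in 14.6% of member promoters (6 of 41, in Ndufa5, Ndufa6, Ndufaf4, Ndufb4 and Ndufs5) against 2.44% of all 32851 promoters. The same Ndufa5 element is counted in overlapping promoters of that gene. By gene the element was in 12.8% (5 of 39) of members against 2.77% of all genes with a promoter. The estrogen-related receptor element in the form TCAAGGTCA was in 0 of 41 against 0.423%, and as TNAAGGTCA, which includes that form, in 1 (Ndufb4) against 1.28%. The hypoxia response core GCGTG was in 53.7% against 32.4%, the core ACGTG in 9 of 41 promoters against 19.6% and the ETS core GGAAGT in 29.3% against 23.8%. GCGTG, read on either strand, can lie inside the nuclear respiratory factor 1 element, as it does in Ndufb4. The stretches around that element are shown for Ndufa5 (minus strand, chr6:24527667-24527757), Ndufaf4 (plus strand, chr4:24897929-24898019) and Ndufs5 (minus strand, chr4:123718235-123718325), a ubiquinone-module subunit, an assembly factor and a proximal membrane-arm subunit with unequal rises. With PGC-1α Ndufa5 rose by 1.04, Ndufaf4 by 1.49 and Ndufs5 by 0.47 ± 0.09 (adjusted p = 0.040). Capitals mark every match of a searched motif, on either strand.
Ndufa5: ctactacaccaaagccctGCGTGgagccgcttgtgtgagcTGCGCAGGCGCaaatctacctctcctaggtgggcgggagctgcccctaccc
Ndufaf4: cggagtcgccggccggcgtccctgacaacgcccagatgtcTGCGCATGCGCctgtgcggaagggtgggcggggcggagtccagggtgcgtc
Ndufs5: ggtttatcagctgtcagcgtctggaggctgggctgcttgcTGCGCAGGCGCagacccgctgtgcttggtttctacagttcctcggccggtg

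The member with the largest fall and the member that rose with DFO in GFP cells are shown with all 250 bases before their starts, Ndufs8 on the minus strand at chr19:3912775-3913024 and Ndufv3 on the plus strand at chr17:31519865-31520114. Capitals again mark matches on either strand, GGAAGT at 2 places and GCGTG at 1 in Ndufs8, and GCGTG at 2 places, 1 of them on the opposite strand, in Ndufv3. After its start, outside the stretch shown, Ndufv3 had a further GCGTG and an ACGTG. The core GCGTG was found in 32.4% of all promoters, and any part of it in the differences by DFO was not tested.
Ndufs8: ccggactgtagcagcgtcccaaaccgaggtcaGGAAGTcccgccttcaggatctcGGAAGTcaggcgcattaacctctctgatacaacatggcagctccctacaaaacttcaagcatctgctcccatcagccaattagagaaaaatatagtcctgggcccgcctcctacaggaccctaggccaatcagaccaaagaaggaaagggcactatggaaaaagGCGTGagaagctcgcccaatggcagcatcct
Ndufv3: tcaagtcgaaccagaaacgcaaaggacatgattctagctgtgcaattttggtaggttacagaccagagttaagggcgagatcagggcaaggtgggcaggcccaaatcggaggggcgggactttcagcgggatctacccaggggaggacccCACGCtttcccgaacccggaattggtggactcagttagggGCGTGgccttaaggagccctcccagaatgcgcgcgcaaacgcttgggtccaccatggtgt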

How the data were processed

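Biotin-labelled cRNA from 8 cultures was read on Affymetrix mouse whole-genome arrays, per the labels' protocols. Intensities were deposited per probe set on a linear scale. How the authors summarised probes, corrected background or scaled arrays could not be learned from the sources at hand, and array medians of 59.5 to 62.8 would hide a difference in total RNA. A floor stood in for other background corrections. Of 45101 probe sets, the platform annotation gave 34945 a single symbol, 932 several and 9160 none, and 64 were controls.

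After log2 transformation, limma 3.58.1 (R 4.3.3, eBayes) was fitted with a mean for each group over 8 arrays and 18193 genes, leaving 4 residual degrees of freedom plus 1.30 from the prior. P-values were two-sided, adjusted by Benjamini-Hochberg over the genes of each contrast and called at 0.05. The procedure was tested on simulated data. With 2 arrays in each group an exact permutation test cannot go below 0.333, so every p rests on the pooled spread. Contrasts share arrays. Members, lists and tests were chosen with earlier results of these data known.

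Values are given for all iron-sulfur subunits, Ndufs3, Ndufab1, Ndufa4, Ndufa4l2 and the Ndufaf genes. Other subunits were named for the 3 largest or 3 smallest differences in a single-factor contrast or the interaction, or a call against most members. Ndufa6, Ndufa9, Ndufa12, Ndufb8, Ndufs5, Ndufs6, Ndufa11, Foxred1, Nubpl and Myog were named after their values were seen. Alternatives covered normalization, probe-set choice, filters, a pseudocount of 16, moderation, the arrays fitted, the replicate number as a block, a 2-fold limit and each array left out. Plots came from matplotlib 3.10.9 (Python 3.11.15).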

Additional observations from a re-analysis of the deposited data

How the results depend on the processing

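Counts of members are given as in the report: 35 higher with PGC-1α without DFO, 35 lower with DFO in GFP cells, 37 higher with PGC-1α with DFO, 21 lower with DFO in PGC-1α cells, 0 for the interaction and 23 for both factors. Leaving out each array gave 9 to 35, 22 to 35, 27 to 36, 7 to 20, 0 to 0 and 16 to 21 for these. The interaction count was 1 with quantile normalization, 17 with genes above the median level, 3 with the floor at the 25th percentile, 2 with the pseudocount of 16 and 26 with trend and robust options. Of all genes tested, 1.19%, 14.5%, 2.46%, 1.73% and 8.06% were called there. Scaling to spike-ins gave 22 for DFO in GFP and 2 for DFO in PGC-1α cells, where 7.31% and 5.73% of all genes fell. Without Trp it gave 13 for PGC-1α without DFO, 19 and 0 for these, and 35 for both factors. There 2.41% of all genes rose with PGC-1α without DFO. With DFO 6.43% fell in GFP and 4.41% in PGC-1α cells, and 38.8% were called for both factors. Every probe set on its own gave 22 for PGC-1α without DFO, where 1.93% of all probe sets rose. A change of at least 2-fold left 6, 11, 19, 1 and 4, the interaction aside. Of all genes 1.93% rose, 4.55% fell, 2.71% rose, 5.67% fell and 13.7% were called in these comparisons at that limit. With only the groups compared, 0, 2 and 8 were called for PGC-1α without DFO, DFO in PGC-1α cells and both factors. Of all genes 0% rose, 6.01% fell and 16.7% were called there. Correlations between the deviations of same-numbered arrays from their group means were -0.11 to 0.22 over genes above the median level. With 2 arrays in each group these values cannot exclude a pairing by replicate number. The replicate block gave 27, 32, 35, 19, 0 and 20. Of all genes 3.52% rose, 11% fell, 5.7% rose, 12.4% fell, and 0.0165% and 28.9% were called in these comparisons.

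Reversed differences were Ndufb2 for both factors (0.12 with spike-ins, 0.17 without Trp). Without Trp they were Ndufs7 and Ndufv2 for DFO in PGC-1α cells (0.052 and 0.031), Ndufa13 for both factors (0.0015) and Ndufaf7 for both factors (0.59). Ndufab1 reversed for DFO in GFP cells with the mean of probe sets (0.18) and without suffixed probe sets (0.082), and for DFO in PGC-1α cells without them (0.11). Where no value shows it, the cause was not tested. Signal over background limits Ndufa4l2, Ndufaf6 and Ndufb4.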
